A study of Homo sapiens with 9 samples.

Results

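The cytosolic ribosomal protein genes were taken as the protein-coding genes of both deposited pairwise tables whose symbol is RPL or RPS followed by a number and, at most, the suffix A, X or L with a further number, together with RPSA, RPLP0, RPLP1 and RPLP2. This gave 84 genes of the 63241 listed, of which 31 encode proteins of the 40S subunit, 46 encode proteins of the 60S subunit and 7 are paralogues of a ribosomal protein (RPL3L, RPL7L1, RPL10L, RPL22L1, RPL26L1, RPL39L and RPS27L). The 31 and 46 are called the core genes here. Of the 84 genes, 82 passed the filter on low counts, including all 77 core genes. RPL10L had no count in any of the 9 libraries, which allows up to 3 counts over all of them, and RPL3L had 3 counts in all, 1 in As2S2 replicate 1 and 2 in PMA replicate 3. No fold change is given for either of these. FAU, RPL36AL and RACK1 encode ribosomal components under other names and are described apart.

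MEG-01 is an established human megakaryoblastic cell line, labelled as a megakaryoblast of bone marrow origin. Poly(A)-selected RNA was sequenced from 3 libraries labelled As2S2 (arsenic disulfide), 3 labelled PMA (a phorbol ester, which switches on protein kinase C and drives megakaryocytic differentiation in lines of this kind) and 3 labelled control. The series concerns arsenic disulfide and megakaryocyte formation, and the labels used here give neither dose, time nor vehicle. All 9 libraries come from the same cell line, the labels do not say that replicates are separate cultures, and p-values therefore measure the spread between these libraries, which may be technical.

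Each cytosolic ribosome carries a small 40S subunit, which reads the mRNA, and a large 60S subunit, which joins amino acids. Most ribosomal proteins are needed in equal numbers, are among the most abundant products of a growing cell, and are made from mRNAs that begin with a run of pyrimidines, the 5′ terminal oligopyrimidine or TOP tract, through which mTOR and the RNA-binding protein LARP1 control their translation. Inherited loss of a copy of some of these genes impairs red cell formation in Diamond-Blackfan anaemia, and loss of RPS14 is a feature of a form of myelodysplastic syndrome.

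The start regions of the genes on which the results turn show this tract or its absence at the listed start. Each line gives 20 bases before and 20 bases from the RefSeq transcription start on GRCh38.p14, 5′ to 3′ on the gene's own strand, and the capitals mark the pyrimidine run that begins with C at the start, or the start base alone where that run is shorter than 5 bases. The paralogue RPS27L, which differed most between PMA and control, is shown with its partner RPS27, and RPL26L1 with RPL26. RPL24 and RPS24 were the core genes with the largest positive differences under PMA, and RPS26 the core gene with the largest under As2S2.
RPS27L, chr15:63157458-63157497, minus strand: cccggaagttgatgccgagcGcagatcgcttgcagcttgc
RPS27, chr1:153990742-153990781, plus strand: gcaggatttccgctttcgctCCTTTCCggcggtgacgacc
RPL26L1, chr5:172958709-172958748, plus strand: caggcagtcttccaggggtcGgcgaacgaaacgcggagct
RPL26, chr17:8383174-8383213, minus strand: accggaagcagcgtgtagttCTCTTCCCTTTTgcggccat
RPL22L1, chr3:170870176-170870215, minus strand: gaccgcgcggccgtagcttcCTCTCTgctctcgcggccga
RPL22, chr1:6199576-6199615, minus strand: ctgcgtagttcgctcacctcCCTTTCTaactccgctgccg
RPL24, chr3:101686699-101686738, minus strand: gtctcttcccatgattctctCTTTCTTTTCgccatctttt
RPS24, chr10:78033843-78033882, plus strand: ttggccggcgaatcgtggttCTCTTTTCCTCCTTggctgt
RPS26, chr12:56041898-56041937, plus strand: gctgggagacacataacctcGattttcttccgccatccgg
The windows of RPS27, RPL26, RPL22L1, RPL22, RPL24 and RPS24 hold the tract at the start, with 7, 12, 6, 7, 10 and 14 pyrimidines. RPS27L, RPL26L1 and RPS26 have G as the start base. Of the 84 genes, 67 matched the RefSeq promoter table by symbol, and 47 of these (70.1%) had a C followed by at least 4 C or T at a listed start, against 1404 of 27305 genes in the whole table (5.14%). The motif was read on the sense strand only and at the start only. RPS27L, RPL26L1, RPL7L1 and RPS26 were among those without it.

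The libraries held 18200501 to 20366870 estimated counts. Of 16 megakaryocyte-line markers, 10 were above 1 CPM (a count scaled to library size) in every library, and none of 4 lymphoid markers was. Over the 16 markers the sums overlapped between groups, at 1609 to 1834 CPM in As2S2, 1809.6 to 1836 CPM in PMA and 1618 to 1828 CPM in control. Single markers differed in opposite directions within these sums. ITGA2B had 501 to 605 CPM in As2S2, 330.3 to 358 CPM in PMA and 673 to 788 CPM in control. ITGB3 had 129 to 145, 414 to 426 and 75.7 to 80.03 CPM in the same order. CD9 had 2.46 to 3.42, 52.03 to 61.3 and 2.54 to 3.72 CPM. PF4, a defining platelet marker, had 2.64 counts in all libraries together. The other lists, of 4 epithelial and stromal and 2 endothelial markers, had 2 and 1 markers above 1 CPM in every library. They summed to 63.4 to 67.1, 93.0 to 93.6 and 72.9 to 79.4 CPM for the first and 46.7 to 54.0, 121 to 138 and 37.4 to 44.1 CPM for the second in As2S2, PMA and control, with CDH5 near 0. Both sums were highest in PMA, and their part in the results was not tested. A pair of libraries stood apart from their group in the ribosomal protein genes. Across the 82 genes, control replicate 2 exceeded the mean of the other control libraries more the higher the GC content of the gene's transcripts (Pearson's r = 0.68, Spearman's rho = 0.74), and As2S2 replicate 1 did the reverse against the other As2S2 libraries (r = -0.75, rho = -0.81). Results that rest on these libraries are also given without them.

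Ribosomal protein genes took 18.6, 19.2 and 18.8% of all counts in As2S2 libraries, 21.5, 21.1 and 20.8% in PMA libraries and 19.3, 20.3 and 19.4% in control libraries. PMA libraries were all above the control libraries, and As2S2 libraries all below them. The As2S2 difference in means, -0.79 points, was -0.45 without control replicate 2 and -0.30 without both that library and As2S2 replicate 1. The means were 18.9 ± 0.316% in As2S2, 21.1 ± 0.344% in PMA and 19.7 ± 0.584% in control (SD, n = 3 each). Per length the order changed. The genes took 37.47, 38.27 and 37.69% of all TPM, a level per transcript length, in As2S2, 38.41, 38.06 and 37.43% in PMA and 39.94, 40.34 and 39.96% in control. On that scale both treatments lay below every control library, at 37.8 ± 0.417% for As2S2 and 38.0 ± 0.498% for PMA against 40.1 ± 0.225% for control (SD, n = 3 each). The PMA libraries thus held a larger share of counts and a smaller share of TPM than control libraries. No test is given for these sums.

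**Figure D1:**
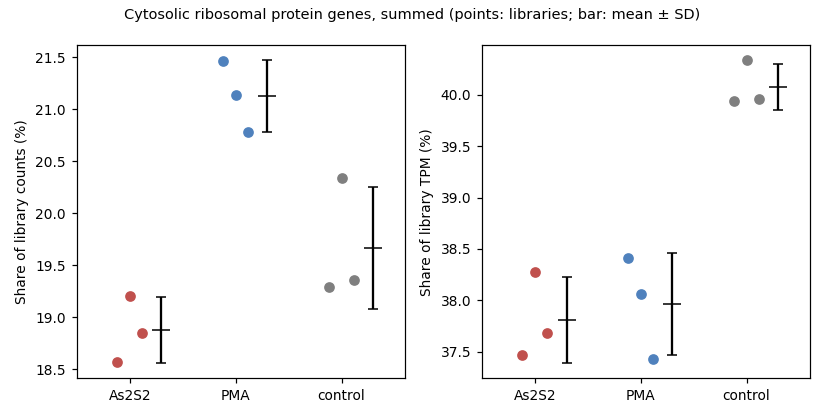
Share of the 84 ribosomal protein genes in each library's counts (left, %) and TPM (right, %); points are libraries and bars are the mean ± SD of 3, and neither axis starts at 0. PMA libraries lie above control libraries in counts, with 20.8 to 21.5% against 19.3 to 20.3%, and below them in TPM, with 37.4 to 38.4% against 39.9 to 40.3%; As2S2 libraries lie below control libraries on both.

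Transcripts of the mitochondrial genome, which share the same totals, took 7.62 ± 0.461% of counts in As2S2, 10.1 ± 0.112% in PMA and 8.04 ± 0.150% in control. Summed 40S counts were 0.773 ± 0.00658 of summed 60S counts in As2S2, 0.758 ± 0.00197 in PMA and 0.774 ± 0.00423 in control (SD, n = 3 each). In counts every PMA library lay slightly below every control library in this ratio, and the As2S2 libraries overlapped the control libraries. In TPM the ratio was 1.002 ± 0.0194 in As2S2, 0.985 ± 0.00210 in PMA and 0.980 ± 0.00574 in control, and both treatments overlapped control, so the lower PMA ratio held in counts and not in TPM. In bulk RNA a change in the number of cells of a kind and a change in RNA per cell cannot be told apart. Levels between genes, in TPM, ran over a wide range. The core gene of highest mean over all 9 libraries was RPS18, a protein of the 40S head, at 22006 TPM, and RPS29 and RPL37A were also among the highest, at 14084 and 12998 TPM. The median core gene stood at 4050.2 TPM, and the lowest, RPL9, at 101.8 TPM. Reads of some members are shared with pseudogenes: named pseudogenes of RPL36A held 34.5% of the counts of that gene and its copies together, those of RPL23A 29.4%, of RPS2 4.93% and of RPS28 3.15%, and values of these genes are uncertain to that extent.

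With PMA, most ribosomal protein mRNAs had higher counts than in control libraries after scaling for composition. Counts of 66 of the 82 genes rose and counts of 2 fell at an adjusted p under 0.05 (edgeR's quasi-likelihood test, Benjamini-Hochberg adjustment over 14592 genes), where 61.9% of all tested genes were called, 30.8% higher and 31.1% lower. The rises were 80.5% of the genes, and the median log2 fold change was 0.45, against 0.00 over all tested genes. Both subunits took part, with 25 of 31 40S genes and 38 of 46 60S genes higher. On log2(TPM + 1) these counts were 9 and 8, where 13.5% of all tested genes were higher, and the medians of both subunits were below 0 there. RPS27L, RPL24, RPS24, RPL36A, RPL21 and RPS25 had the largest differences among genes whose libraries did not overlap, and RPL39L and RPS2 were those that fell.

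**Figure D2:**
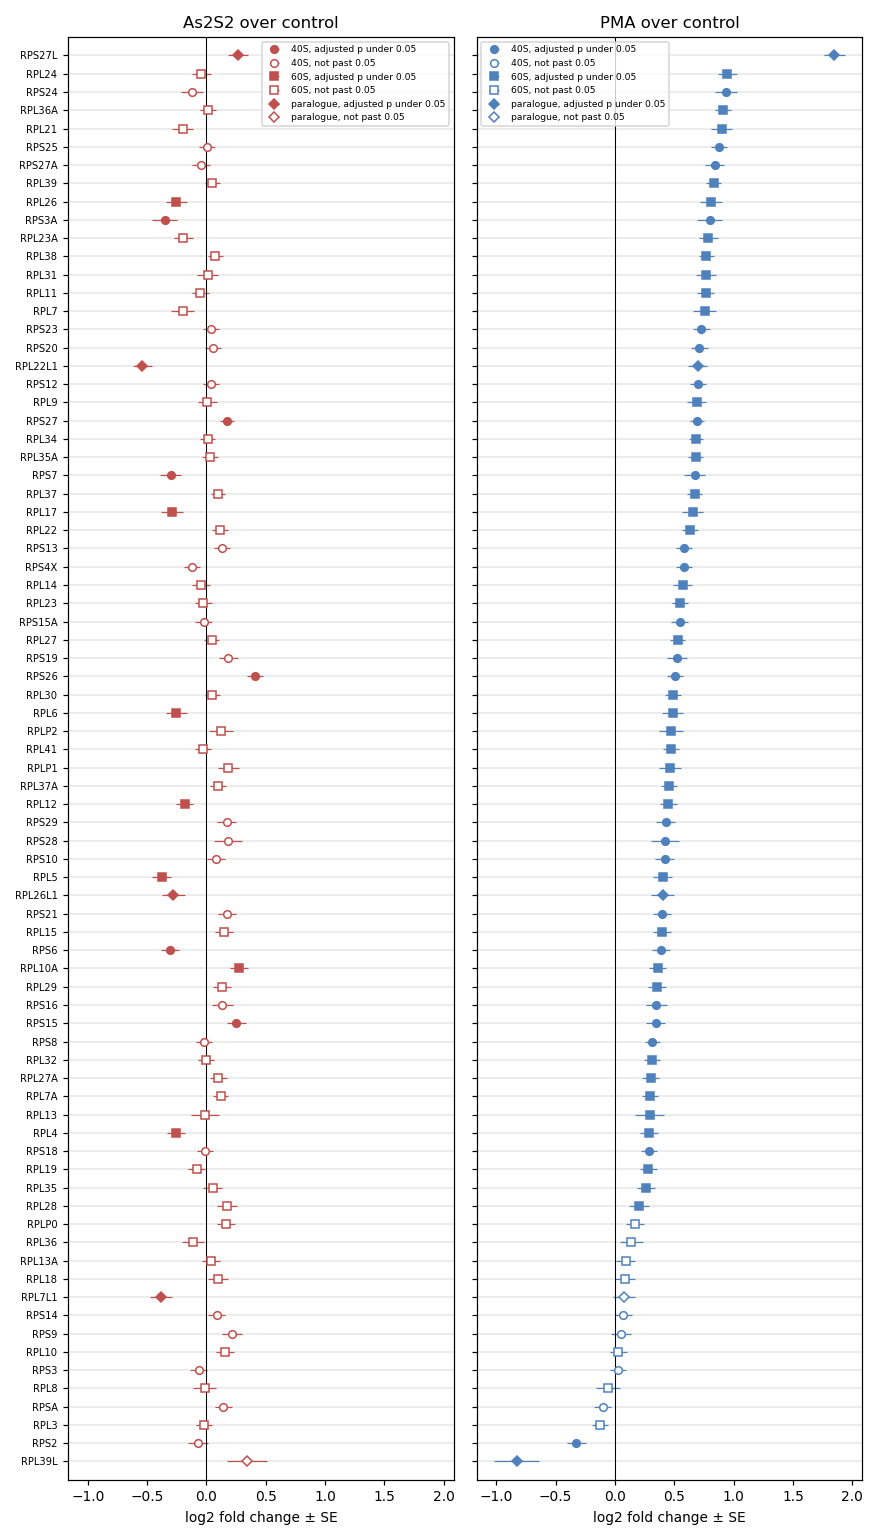
Log2 fold change over control of 78 of the 82 tested ribosomal protein genes (rows, in order of the PMA value) for As2S2 (left) and PMA (right); horizontal bars are the standard error of the fit on 9 libraries with TMM scaling, shapes give the class, and filled symbols passed an adjusted p of 0.05. PMA values run from -0.83 for RPL39L to 1.85 for RPS27L and most are filled, whereas As2S2 values run from -0.54 for RPL22L1 to 0.41 for RPS26 with 5 positive and 12 negative calls; scaling by TPM reverses the sign of the PMA median.

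RPL24, a 60S protein that forms a bridge to the 40S subunit, had 2334, 2319.5 and 2181 CPM in PMA libraries, against 1164, 1231 and 1148 CPM in control libraries. The PMA libraries lay far above every control library. Its log2 fold change was 0.95 ± 0.08, adjusted p = 3.54e-08. RPS24, a 40S protein whose loss causes Diamond-Blackfan anaemia, had 1687, 1691 and 1596 CPM in PMA and 892, 858 and 851 CPM in control. The groups did not overlap, and the log2 fold change was 0.94 ± 0.09, adjusted p = 2.76e-07. RPL21 and RPS25, the second of which is needed for translation from several viral internal entry sites, stood at 0.90 and 0.88 log2, and RPL36A, the member with the largest pseudogene share, at 0.91.

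RPS2, a 40S protein at the mRNA entry, was the core gene that fell. It had 5200.5, 4923 and 4786 CPM in PMA libraries, against 6027, 6946 and 5705 CPM in control libraries. Every PMA library lay below every control library, and the log2 fold change was -0.33 ± 0.08, adjusted p = 0.00288. Its 40S neighbour RPSA, also known as a laminin receptor, did not pass (-0.11 ± 0.07, adjusted p = 0.211). RPL3, which lies near the peptidyl transferase centre, was the 60S gene with the lowest value, at -0.12. Other core genes that did not pass included RPS3, RPS9 and RPS14 of the 40S subunit and RPL8, RPL10, RPL13A, RPL18, RPL36 and RPLP0 of the 60S subunit.

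RPL11 and RPL5, which together bind and inhibit the p53 ligase MDM2, stood at 0.76 and 0.40 log2 under PMA, and both passed. Of 19 genes linked to Diamond-Blackfan anaemia or related loss, 17 (89.5%) rose and none fell, against 6 and 3 on log2(TPM + 1). This share was near the 80.5% of all 82 genes that rose, where 30.8% of all tested genes did. On log2(TPM + 1) 13.5% of all tested genes were higher and 47.9% lower. RPS19, the gene most often affected in that disease, had 2617, 2477 and 2551 CPM in PMA and 1572, 2023 and 1720.2 CPM in control. All PMA libraries were higher, with a log2 fold change of 0.52 ± 0.08, adjusted p = 3.68e-05. RPS14 stood at 5227, 4927 and 4390.0 CPM in PMA and 4390.1, 4865 and 4603 CPM in control, and the groups overlapped (0.07 ± 0.07, adjusted p = 0.419). RPS6, the target of S6 kinase, stood at 0.39, RPS27A, made as a fusion to ubiquitin, at 0.84, and RPL41, the smallest ribosomal protein, at 0.47, and all 3 passed. RPL10, which joins the 60S subunit last, did not (0.03). Of the stalk genes that recruit elongation factors, RPLP1 and RPLP2 rose by 0.46 and 0.48, and RPLP0 did not pass (0.16).

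The size of this difference, and for TPM its sign, depended on the scale. With library totals alone and no scaling for composition, the median of all genes was -0.26 log2 and that of the ribosomal protein genes 0.19, with 46 higher and 13 lower. Of all genes 20.3% were then higher and 44.4% lower. On log2(TPM + 1), tested with limma, the median of the ribosomal protein genes was -0.07, with 19 higher and 28 lower, against -0.26 for all genes. Of all genes 13.5% were higher and 47.9% lower on that scale. Among the 4741 genes with a mean of at least 10 TPM, the log2 ratio of mean TPM was -0.06 for the median of 81 ribosomal protein genes and -0.37 for the median of all. So relative to the other genes these stayed higher under PMA on each of these scales, while relative to the library total they were higher in counts and lower in TPM.

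**Figure D3:**
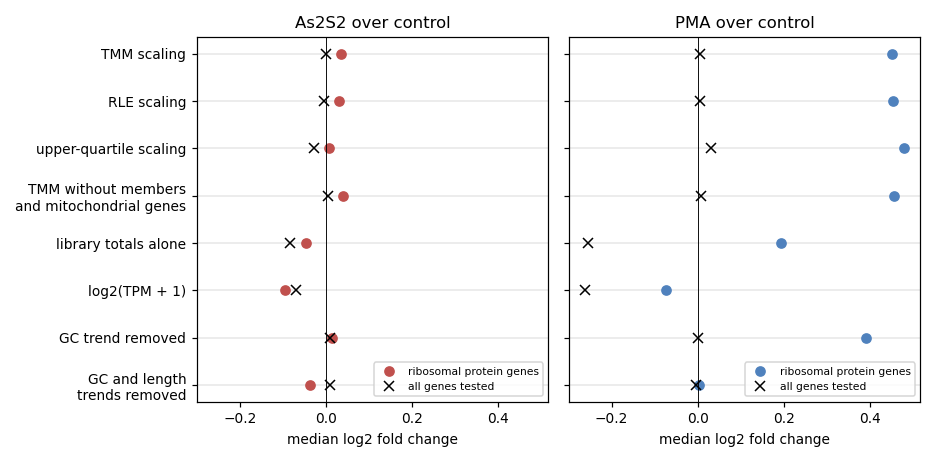
Median log2 fold change over control for As2S2 (left) and PMA (right) under 8 ways of scaling (rows); filled circles are the 82 ribosomal protein genes and crosses are all tested genes. For PMA the circles lie at 0.45 with TMM, at 0.19 with library totals, at -0.07 for log2(TPM + 1) and at 0.00 once trends with GC content and length are removed, and for PMA the circle lies right of the cross in every row but the last, where they meet.

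Transcript length moved with the PMA result. Ribosomal protein mRNAs are short, with a median GENCODE transcript length of 685.0 bases against 1717.5 bases for all tested genes. Over the 1764 other genes whose counted length, taken from counts per TPM, fell within the range of the middle 80% of the ribosomal protein genes, the median PMA log2 fold change was 0.38, and 47.0% were higher and 13.3% lower. Over the 12046 other genes longer than that range it was -0.06. The rise of the ribosomal protein genes was thus close to that of other genes of their length, 0.45 against 0.38. A larger share passed, 80.5% against 47.0%, but these other genes were matched on length and not on level. The part of level in the share passing was not tested. When trends of each library with GC content and length were removed, a setting added after the data were seen, the median of the ribosomal protein genes was 0.00, with 29 higher and 23 lower. Of all genes 33.1% were then higher and 33.4% lower. What the length relation comes from was not tested.

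Some ribosomal protein genes passed under PMA in every setting. Over the fit and its 24 alternatives, which include TPM and removal of the length trend, 18 of the 82 genes (22.0%) were called higher each time, against 12.8% of the 12411 genes tested in every setting. These were RPS27L, RPL24, RPS24, RPL21, RPS25, RPS27A, RPL39, RPL26, RPS3A, RPL23A, RPL11, RPS23, RPS20, RPL22L1, RPS12, RPL34, RPL35A and RPS7. RPL24 ranged from 0.42 to 0.98 log2 and RPS24 from 0.45 to 0.96. RPS2 and RPL39L (2.44%) were called lower each time, against 26.1% of all those genes, with ranges of -0.80 to -0.25 and -1.26 to -0.70.

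With As2S2 the counts of single ribosomal protein genes moved in both directions. Counts of 5 of the 82 genes rose and of 12 fell, or 6.10% and 14.6%, where 39.9% of all tested genes were called, 20.3% higher and 19.6% lower. The share called, 20.7%, was below the background in all 9 libraries. Without control replicate 2 it was 41.5% against 42.2%, and without both that library and As2S2 replicate 1 it was 70.7% against 50.3%. Those libraries were singled out for standing apart in these same genes, so the higher share cannot be weighed against the background. Without control replicate 1 or 3 the share was 13.4% against 33.03% and 12.2% against 31.8%. Without As2S2 replicate 2 or 3 it was 8.54% against 31.7% and 31.6%. Without As2S2 replicate 1 alone it was 36.6% against 39.98%, slightly below the background. Without PMA replicate 1, 2 or 3 it was 17.1% each time, against 36.5%, 36.9% and 36.9%. The median log2 fold change was 0.03, against -0.00 over all tested genes. RPS26, RPL10A, RPS27L, RPS15 and RPS27 rose. RPL22L1, RPL7L1, RPL5, RPS3A, RPS6, RPS7, RPL17, RPL26L1, RPL4, RPL6, RPL26 and RPL12 fell.

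RPS26, a 40S protein that lines the mRNA exit, had 809, 898 and 892 CPM in As2S2 libraries, against 634, 655 and 665 CPM in control libraries. Every As2S2 library lay above every control library, and the log2 fold change was 0.41 ± 0.07, adjusted p = 0.000169. RPL10A, a 60S protein carried by some ribosomes more than others, had 1985, 1938 and 1922 CPM in As2S2 and 1457, 1824 and 1556 CPM in control. Control replicate 2 stood nearest to the As2S2 libraries without overlap, and the log2 fold change was 0.27 ± 0.07, adjusted p = 0.00842. RPS15, a protein of late 40S maturation, and RPS27 had smaller differences of 0.25 and 0.17.

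Among those that fell, RPL5 had 1349, 1075 and 1072 CPM in As2S2 and 1497, 1512 and 1532 CPM in control. As2S2 replicate 1 was the highest of its group but still below the control libraries, and the log2 fold change was -0.38 ± 0.08, adjusted p = 0.00153. RPS6 had 1879, 1557 and 1501 CPM in As2S2 and 1978, 2089 and 2042 CPM in control. It showed the same layout, with -0.31 ± 0.08, adjusted p = 0.00531. RPS3A and RPS7, both 40S proteins, stood at -0.35 ± 0.11, adjusted p = 0.0151 and -0.30 ± 0.09, adjusted p = 0.0102, and As2S2 replicate 1 lay just under the lowest control library in both. RPL11, the partner of RPL5, did not pass (-0.05 ± 0.07, adjusted p = 0.598). RPS14 and RPS19 did not pass either, at 0.09 and 0.18.

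The As2S2 counts depended on single libraries. Leaving out control replicate 2 gave 23 higher and 11 lower, leaving out As2S2 replicate 1 gave 14 and 16, and leaving out both gave 37 and 21. Shares of all genes higher and lower were 22.1% and 20.2%, 20.4% and 19.6%, and 25.4% and 24.8% in the same order. Over all libraries left out in turn, the counts ran from 2 to 23 higher and from 4 to 16 lower. RPS26 and RPL10A were called higher (2.44% of the 82), and RPL22L1, RPL7L1, RPL5 and RPS6 lower (4.88%), in the fit and in all 24 alternatives, against 11.2% and 13.2% of the 12349 genes tested in every setting. RPS15 and RPS27 each missed the threshold without control replicate 1 or 3 or As2S2 replicate 2 or 3, RPS27L without control replicate 1 or As2S2 replicate 1, and RPS3A, RPS7 and RPL4 without As2S2 replicate 2 or 3. RPL17 was lost without those or control replicate 3, and RPL6 without those or control replicate 1 or 3. RPL26 and RPL26L1 missed it without any library other than control replicate 2 and As2S2 replicate 1, and RPL12, called in 13 of 25 settings, without any library other than control replicate 1. The calls of RPS15, RPS27 and RPS27L were also lost with library totals alone and on log2(TPM + 1). RPS27 and RPS27L also missed the threshold with only the groups compared, and RPS27 with no filter. RPS15 missed it with the GC trend removed, and RPS15 and RPS27 with GC and length trends removed.

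Set against PMA directly, As2S2 libraries were lower in 63 of the 82 genes and higher in 3, where 61.4% of all tested genes were called, 30.6% lower and 30.9% higher. The median log2 fold change was -0.44. The 3 higher genes were RPL39L, RPS2 and RPSA. RPSA had 2584, 2823 and 2762 CPM in As2S2 and 2382, 2351 and 2145 CPM in PMA. The groups did not overlap (0.25 ± 0.07, adjusted p = 0.00635). RPS3A showed one of the largest gaps, with 1659, 1180.4 and 1132 CPM in As2S2 and 2977, 3006 and 2821 CPM in PMA. All As2S2 libraries lay far below, at -1.15 ± 0.11, adjusted p = 1.34e-07. RPL21, RPL26 and RPS24 stood at -1.10, -1.07 and -1.06. On log2(TPM + 1) the direct comparison gave 24 higher and 33 lower with a median of 0.00, where 40.9% of all tested genes were higher and 15.9% lower. In the fit and in all 24 alternatives 31 genes (37.8%) were called lower, against 15% of the 12418 genes tested in every setting.

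Some paralogues moved with their partners and others differed from them. RPS27L, a paralogue of RPS27 and a known target of p53, had 73.8, 62.9 and 65.0 CPM in As2S2, 208, 207 and 189.7 CPM in PMA and 51.1, 54.4 and 62.2 CPM in control. PMA libraries lay more than 3-fold above every control library, and As2S2 libraries just above them. The log2 fold change was 1.85 ± 0.09, adjusted p = 2.96e-11 for PMA and 0.27 ± 0.09, adjusted p = 0.0241 for As2S2, and -1.58 ± 0.09, adjusted p = 2.3e-10 for As2S2 over PMA. Over all settings the PMA value ran from 1.15 to 1.93. RPS27 itself stood at 0.69 under PMA. In TPM, RPS27L was 0.731 ± 0.0780% of RPS27 in As2S2, 1.43 ± 0.0504% in PMA and 0.739 ± 0.0929% in control (SD, n = 3 each), and the PMA libraries did not overlap the control libraries.

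RPL22L1, the paralogue of RPL22, moved in opposite directions under the treatments. It had 44.1, 38.0 and 40.8 CPM in As2S2, 97.6, 101 and 91.3 CPM in PMA and 56.6, 63.0 and 59.1 CPM in control. No group overlapped another. The log2 fold change was -0.54 ± 0.08, adjusted p = 8.2e-05 for As2S2, 0.70 ± 0.08, adjusted p = 1.36e-06 for PMA and -1.24 ± 0.08, adjusted p = 2.29e-09 for As2S2 over PMA. RPL22, whose protein binds the RPL22L1 transcript and limits it, rose with PMA (0.63) and did not pass with As2S2 (0.12). Relative to RPL22 in TPM, RPL22L1 stood at 7.41 ± 0.323% in As2S2, 14.8 ± 0.276% in PMA and 11.7 ± 1.57% in control (SD, n = 3 each), with no overlap of either treatment with control.

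RPL39L, known from male germ cells in mice, was low. It had 6.47, 8.06 and 8.94 CPM in As2S2, 4.26, 2.83 and 3.34 CPM in PMA and 5.45, 5.90 and 7.12 CPM in control. PMA libraries lay below all others, and As2S2 and control libraries overlapped. It fell with PMA (-0.83 ± 0.19, adjusted p = 0.00105) while its partner RPL39 rose (0.83), and did not pass with As2S2 (0.34 ± 0.17, adjusted p = 0.118). RPL7L1, whose protein takes part in 60S assembly in the nucleolus, had 179, 139 and 143 CPM in As2S2, 198, 219.8 and 214 CPM in PMA and 210.2, 184 and 206 CPM in control. As2S2 libraries lay below both other groups, which overlapped, at -0.38 ± 0.09, adjusted p = 0.00329 for As2S2 and 0.07 ± 0.09, adjusted p = 0.497 for PMA. RPL26L1 fell with As2S2 (-0.28 ± 0.10, adjusted p = 0.0343) and rose with PMA (0.40 ± 0.10, adjusted p = 0.00192), and its partner RPL26 did likewise, at -0.25 and 0.81. In TPM, RPL26L1 was 1.31% of RPL26 in PMA against 1.76% in control. RPL7L1 was 1.71% of RPL7 against 2.76%, and RPL39L 0.0441% of RPL39 against 0.139%. In each of these ratios PMA libraries lay below control libraries without overlap, and As2S2 libraries overlapped control libraries. The signs of RPL26L1 and RPL7L1 under PMA turned on log2(TPM + 1), and that of RPL26L1 also once trends with GC content and length were removed.

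**Figure D4:**
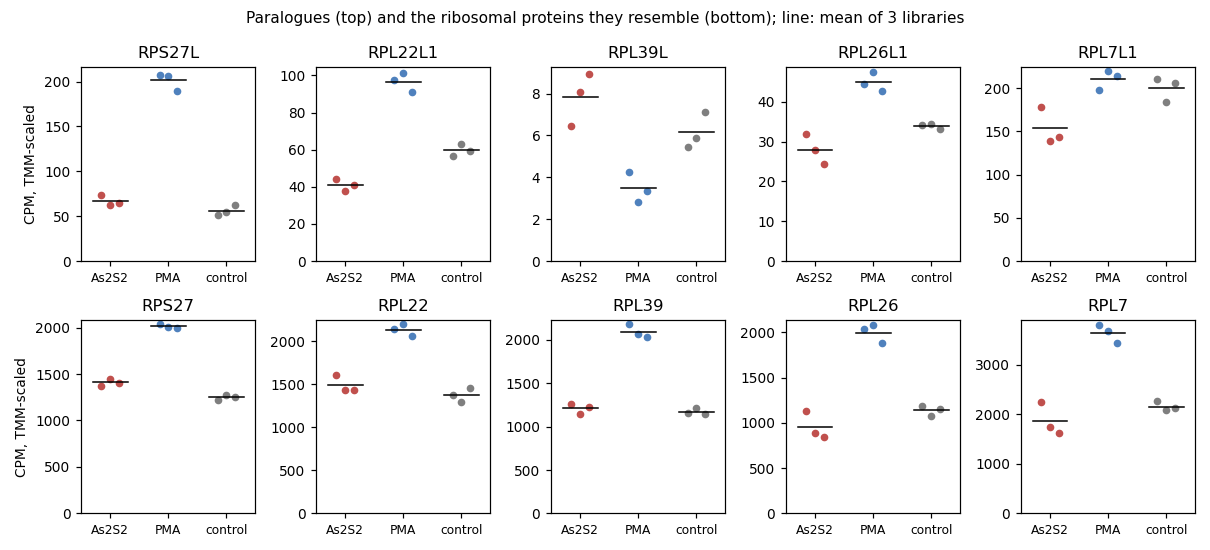
TMM-scaled CPM in each library for the 5 detected paralogues (top row) and their partners (bottom row); points are libraries, lines are means of 3, and each panel starts at 0. RPS27L stands at 189.7 to 208 CPM in PMA against 51.1 to 62.2 CPM in control, RPL22L1 is lowest in As2S2 and highest in PMA, and RPL39L is lowest in PMA where RPL39 is highest.

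GC content ordered the PMA differences among the ribosomal protein genes. Across the 82 genes, the PMA log2 fold change fell with the GC content of the transcripts (r = -0.64, rho = -0.75), whereas across 14063 tested genes with a GC value r was 0.07. The points share the same 6 libraries and are not independent. The 26 core genes of lowest GC content (42.7 to 48.2%) had a median of 0.70, the next 26 (48.7 to 52.7%) 0.45, and the 25 of highest (53.5 to 62.8%) 0.20. All 26 of the lowest group rose, as did 24 and 13 of the others. Of all core genes 81.8% rose, and of all tested genes 30.8%. Over non-member genes in the same 3 ranges the PMA medians were 0.05, -0.00 and -0.01. Removing each library's trend with GC content, fitted on all genes, left r at -0.65 over the 82 genes. Without control replicate 2 and As2S2 replicate 1, which themselves follow GC content, it was -0.57.

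**Figure D5:**
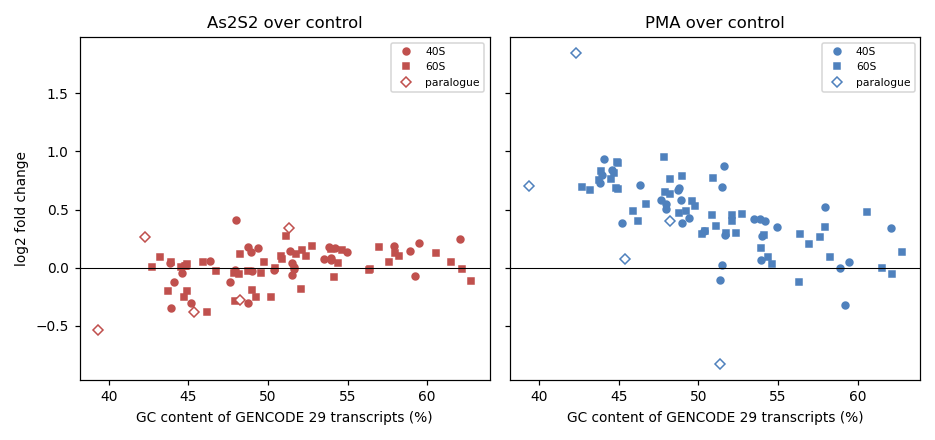
Log2 fold change over control against the GC content (%) of GENCODE 29 transcripts for the 82 tested ribosomal protein genes, for As2S2 (left) and PMA (right); each point is a gene, with TMM scaling, and shapes give the class. Under PMA the core genes descend from about 0.70 at low GC content to about 0.20 at high GC content, and under As2S2 the slope is shallower and in the opposite direction.

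For As2S2 the relation ran the other way and was weaker (r = 0.40, rho = 0.42), against 0.11 over all tested genes, and the medians were -0.02, 0.02 and 0.10 in the 3 ranges. Other genes in those ranges had As2S2 medians of -0.05, 0.01 and 0.10. After removal of the GC trend of all genes, r was 0.07. Without control replicate 2 and As2S2 replicate 1 it was 0.61. Transcript length had little relation to either difference within the ribosomal protein genes, with r of -0.23 for As2S2 and -0.20 for PMA.

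Core genes with and without the TOP tract at a listed start had similar PMA medians. The median PMA log2 fold change was 0.47 over 46 core genes with the tract, of which 37 (80.4%) rose. It was 0.42 over 16 without it, of which 15 (93.8%) rose. Of all core genes 81.8% rose, and of all tested genes 30.8%. Under As2S2 the medians were 0.04 and 0.00. With the tract 1 (2.17%) was higher and 4 (8.70%) lower, and without it 3 (18.8%) and 4 (25%). Of all tested genes 20.3% were higher and 19.6% lower. The run was read from the listed start base only, so a gene counted as without it may hold such letters nearby. The windows of RPS26 and RPL26L1 hold a C followed by 4 C or T, after and before that base.

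Of the ribosomal components with other names, FAU, the ubiquitin-like fusion that yields a 40S protein, rose with As2S2 (0.38) and PMA (0.37). RPL36AL, a close copy of RPL36A that shares sequence with it, had 101, 93.8 and 86.7 CPM in As2S2, 201, 210.3 and 191 CPM in PMA and 85.8, 82.5 and 87.5 CPM in control. PMA libraries lay far above the others (1.24 ± 0.07, adjusted p = 5.45e-10). RACK1, a scaffold on the 40S head, fell with PMA (-0.27) and did not pass with As2S2 (-0.16).

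Other genes listed as having TOP mRNAs were mixed. The listing is general knowledge, and no start tract is given for them here. Of 20 translation factors and other coding TOP genes, 9 rose and 6 fell with PMA (median 0.09), and 2 rose and 4 fell with As2S2 (median -0.02). TPT1, the tumour protein whose mRNA is a classical TOP mRNA, and EIF4A2, an RNA helicase of initiation, rose with PMA by 1.13 and 1.40. VIM, the intermediate filament vimentin, and NPM1, a nucleolar chaperone, fell with As2S2, at -0.78 and -0.49. Of 10 noncoding snoRNA hosts listed as TOP genes, 8 fell and none rose with As2S2, and 5 rose and 3 fell with PMA. SNHG1 had 197, 183 and 188 CPM in As2S2, 246, 266 and 244 CPM in PMA and 416, 440.4 and 481 CPM in control. It was lower in both treatments, at -1.23 and -0.82, as was SNHG8 (-0.88 and -0.59). GAS5 and ZFAS1 fell with As2S2 (-0.34 and -0.46) and rose with PMA (0.66 and 0.45), and SNHG6 rose with PMA (0.90).

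Genes that control TOP mRNAs, assemble ribosomes or clear stalled ones were mostly lower with PMA. Of 17 genes of the mTOR and LARP1 pathway, 3 rose and 11 fell (median -0.38). LARP1 had 214, 210.3 and 202 CPM in PMA and 456, 426 and 439.5 CPM in control. All PMA libraries lay below (-1.08 ± 0.07, adjusted p = 5.97e-10). EIF4EBP1, the translation repressor that mTOR switches off, stood at -1.81 ± 0.12, adjusted p = 1.55e-09. With As2S2, 3 of the 17 rose and 3 fell. RHEB, TSC1 and EIF4EBP2 rose, at 0.34, 0.26 and 0.21. DEPTOR, LARP1B and RPS6KB1 fell, at -0.57, -0.41 and -0.30. DEPTOR was low, at 3.50 to 5.69 CPM in As2S2 and 6.84 to 7.87 CPM in control. Of 27 ribosomal protein chaperones and assembly factors, 4 rose and 17 fell with PMA (median -0.48), and 1 rose and 11 fell with As2S2 (median -0.23). MDN1, the giant ATPase of 60S maturation, SDAD1 and NLE1, which act in 60S assembly, fell with PMA, at -1.78, -1.82 and -1.38 log2. RIOK1, a kinase of late 40S maturation, and PDCD2, the chaperone of RPS2, fell with As2S2, at -0.88 and -0.53. PDCD2 also fell with PMA, at -0.43.

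Of 14 genes of ribosome rescue and quality control, 2 rose and 8 fell with PMA (median -0.61), and 1 rose and 4 fell with As2S2 (median 0.00). NEMF, which marks nascent chains on stalled 60S subunits, and GCN1, a sensor of collided ribosomes, fell with PMA, at -1.44 and -0.94. ABCE1, the ribosome recycling factor, fell with As2S2, at -0.78, and RNF10, a ligase that marks 40S proteins, rose by 0.51. For comparison, of 78 mitochondrial ribosomal protein genes 36 rose and 19 fell with PMA (median 0.17), and 7 rose and 21 fell with As2S2 (median -0.12). These lists were chosen with results of these data known, and their counts stand beside the background shares of 30.8% higher and 31.1% lower for PMA and 20.3% and 19.6% for As2S2.

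The directions of some of these lists under PMA also turned with the scale. With library totals alone, the PMA median was -0.09 for mitochondrial ribosomal protein genes, -0.17 for coding TOP genes and -0.01 for snoRNA hosts, and on log2(TPM + 1) these were -0.30, -0.39 and -0.22. The medians of the mTOR and LARP1 pathway, of chaperones and assembly factors and of quality control genes stayed below 0 under PMA in every scaling tried, as did that of the snoRNA hosts under As2S2. Among single genes named here, FAU, ZFAS1 and RHEB turned under PMA on log2(TPM + 1), FAU also once both trends were removed, and RNF10 on log2(TPM + 1) and with library totals alone.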

How the data were processed

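RNA from MEG-01 cells was poly(A)-selected and prepared with the NEBNext Ultra II kit, per the labels' protocols. The submitters' processing notes name fastp 0.22.0 and DESeq2, and zebrafish genome builds, although the gene IDs are human; for aligner, counter and strandedness the entry is not given in the sources used. The authors deposited estimated counts and TPM for 9 libraries in pairwise tables, whose control values were identical. One control library carries an organism label other than human and was kept.

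Estimated counts were rounded, filtered with filterByExpr (14592 genes), TMM-scaled and tested with edgeR 4.0.16 (quasi-likelihood, all 9 libraries, group as the term, R 4.3.3), with p-values adjusted by Benjamini-Hochberg at 0.05; errors are standard errors of log2 fold changes. CPM are TMM-scaled. Alternatives used DESeq2 1.42.0 and limma 3.58.1. The fit was tested on simulated data. Gene names came from the supplied symbol table, gene types, lengths and GC content from GENCODE 29, and starts from RefSeq GRCh38.p14. Replicate numbers were not treated as pairs. Intervals and limits from counts cover counting error only.

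Named genes were a fixed list, the 6 highest and 6 lowest genes past 0.05 without overlap in each comparison, the 5 highest in TPM, and up to 2 of each other list per comparison; RPL3 and the lists of calls were named after their values were seen. The genes and lists were chosen with earlier results of these data known. Some genes that these rules name are not reported here.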

Additional observations from a re-analysis of the deposited data

How the results depend on the processing

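Counts of genes higher and lower, and medians, held within 1.5 times or the spread under RLE and DESeq2 scaling, limma-voom, a stricter filter, added pseudogene counts and scaling without ribosomal protein and mitochondrial genes. With 1 library left out, As2S2 against control gave 2 to 23 higher, 4 to 16 lower and a median of 0.00 to 0.08, PMA against control 64 to 69, 2 to 3 and 0.41 to 0.49, and As2S2 against PMA 2 to 6, 52 to 64 and -0.46 to -0.42. The differences in share then ran from -0.97 to -0.45 (counts) and -2.50 to -2.10 (TPM) for As2S2, and 1.28 to 1.80 and -2.33 to -1.84 for PMA. Without both control replicate 2 and As2S2 replicate 1, As2S2 gave 37 higher and 21 lower against control and 9 higher against PMA, and its share of counts differed by -0.30. Of all genes 25.4% were then higher and 24.8% lower against control, and 33.2% higher against PMA. Library totals alone gave As2S2 2 higher and a median of -0.047, PMA 13 lower and 0.19, and As2S2 against PMA 12 higher and -0.27. Of all genes 15.7% were higher, 44.4% lower and 39.5% higher in the same order. No filter gave 6 higher and -0.42, upper-quartile scaling -0.50, and GC trend removal -0.40 for As2S2 against PMA. Only the groups compared gave As2S2 3 higher. On log2(TPM + 1), As2S2 had 2 higher, 21 lower and -0.096, PMA 19, 28 and -0.074, and As2S2 against PMA 24, 33 and 0.0041. Shares of all genes higher and lower were then 11.5% and 21.0%, 13.5% and 47.9%, and 40.9% and 15.9%. Trends with GC content and length removed gave As2S2 19 lower and -0.038, PMA 29 higher, 23 lower and 0.0020, and As2S2 against PMA 24, 35 and -0.034. Shares of all genes were 24.2% lower for As2S2, 33.1% higher and 33.4% lower for PMA, and 33.4% and 32.8% for As2S2 against PMA. Leaving the mitochondrial genome out of totals gave share differences of 2.12 points of counts for PMA and -3.13 points of TPM for As2S2. The cause of these changes was not tested.

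Signs that turned are given as log2 fold changes, for genes of the naming rule that passed 0.05 in the fit or in the alternative. With library totals alone they were, for PMA against control, RPL10 (-0.23) and RPS14 (-0.19), and for As2S2 against PMA RPLP0 (0.18); over all 82 genes, passing or not, positive values then numbered 29 for As2S2 and 65 for PMA against control and 19 for As2S2 against PMA, against 47, 75 and 11 with TMM. On log2(TPM + 1) they included, for PMA against control, RPL10 (-0.49), RPL10A (-0.11), RPL22 (-0.15), RPL26L1 (-0.090), RPL37A (-0.17), RPL41 (-0.019), RPL5 (-0.063), RPL7L1 (-0.45), RPLP0 (-0.33), RPLP1 (-0.0058), RPS14 (-0.59), RPS15 (-0.14), RPS18 (-0.19), RPS19 (-0.014), RPS29 (-0.088) and RPS6 (-0.27). For As2S2 against PMA on that scale they included RPL10A (0.28), RPL22 (0.13), RPL37A (0.14), RPLP0 (0.38), RPLP1 (0.057), RPLP2 (0.012), RPS15 (0.27), RPS18 (0.060), RPS19 (0.074), RPS26 (0.26) and RPS29 (0.16). With GC and length trends removed they included, for PMA against control, RPL10 (-0.40), RPL10A (-0.083), RPL26L1 (-0.061), RPL37A (-0.087), RPL41 (-0.12), RPLP0 (-0.14), RPLP2 (-0.022), RPS14 (-0.20), RPS15 (-0.17), RPS18 (-0.24) and RPS29 (-0.28). For As2S2 against PMA in that setting they included RPL10A (0.32), RPL37A (0.11), RPL41 (0.031), RPLP0 (0.23), RPS15 (0.26), RPS18 (0.14), RPS26 (0.40), RPS27 (0.023) and RPS29 (0.23).

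The replicate numbers did not pair the libraries: deviations of same-numbered libraries correlated at -0.07 to 0.15. With the replicate number as a block, As2S2 gave 6 higher and 15 lower, PMA 66 and 2, and As2S2 against PMA 3 and 64. Not every library correlated best with its own number. The settings that remove trends were chosen after seeing the data. Depth limits RPL3L and RPL10L, and RPL39L at under 10 CPM, more than the others.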
